A study of Mus musculus with 20 samples.

Results

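Bulk RNA-Seq of brain tissue was examined here for 9 genes known from neural progenitors and from the migrating young neurons called neuroblasts, out of 46078 genes in the deposited tables. The 9 were named by symbol and matched to their Ensembl identifiers: Dcx, Sox11, Dlx1, Dlx2, Dlx5, Cd24a, Igfbpl1, Nes and Sox2. All 9 were found, once each. They were selected on measured levels of these same 20 libraries, in that the list was drawn up with earlier results in view, but it names no comparison and no threshold. The p-values below were adjusted over all genes tested. They describe these libraries and are not independent support for the choice of genes.

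The libraries came from wild type C57BL/6J mice, 18 months old, all of which had a stroke of the distal hypoxic type, a cortical infarct made by closing a branch of the middle cerebral artery and then lowering oxygen. Mice received sterile PBS as vehicle or HPBCD (2-hydroxypropyl-beta-cyclodextrin, a ring of sugars that takes up cholesterol and other lipids) under the skin at 4 g/kg, 3 times a week for 6 weeks from week 1 after stroke, and tissue was taken at week 7. Peri-infarct tissue and the matching contralateral tissue of 5 mice per treatment gave 4 groups of 5 libraries, 20 in all, from 10 mice. No uninjured mice enter these groups, so the contralateral side of the same stroked mice is the reference between regions. Treatment is known from the labels alone, and directions between treatments are given for the libraries as labelled. The direction of reactive astrocyte genes between treatments, given below, raises the question of whether the vehicle and HPBCD labels are exchanged. Pan-neuronal markers and B cell and granulocyte markers, also given below, differed between treatments in their peri-infarct medians too. These measures were not weighed against each other. Nothing in the sources used here settles the question, which was not tested. An exchange would turn the sign of every difference between treatments and of the interaction. It would also swap the treatment named with each difference between regions.

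In the adult mouse brain, neural stem cells persist in the wall of the lateral ventricle, the subventricular zone, and in the dentate gyrus of the hippocampus. Stem cells of the ventricle wall express Sox2 and the filament protein nestin, divide, and give rise to neuroblasts that express doublecortin, polysialylated NCAM and Dlx transcription factors and migrate to the olfactory bulb as future inhibitory neurons. After a cortical stroke some of these cells turn towards the injury. None of the 9 genes is restricted to that lineage. Sox2 is also made by astrocytes, nestin by reactive astrocytes and vessels, Cd24a by the ciliated ependymal cells that line the ventricle, and Dlx genes by mature inhibitory neurons of cortex and striatum. In bulk tissue, fewer cells of a type and less RNA per cell cannot be told apart.

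Gene counts summed to between 14445021 and 22171627 per library, with a median of 19008532, so that 3 counts, the limit a count of 0 allows, corresponded to between 0.135 and 0.208 CPM, the count scaled to library size. Such limits and the intervals given for Igfbpl1 cover counting error only. Some contralateral libraries stood apart from the rest of their group. Vehicle contralateral replicate 1 had 4740 summed CPM of 12 striatal medium spiny neuron markers, where the other replicates of its group had 392 to 482. Vehicle contralateral replicate 3 had 63.4 summed CPM of 12 ependyma markers, against 14.5 to 24.2 in the other replicates. HPBCD contralateral replicate 4 had the highest shares of read pairs in no gene (9.5%) and in more than 1 gene (8.03%). These 3 are meant below by the libraries that stood apart, and calls of the 9 genes that changed without them are given with their values, a choice made after seeing the data. HPBCD contralateral replicate 3 is not among those 3, although it had 661 summed CPM of choroid plexus markers against 1.77 to 7.23 in the other replicates of its group. Left out alone, it changed no edgeR call of the 9 genes, and 1 difference that was not called changed sign (Dcx between treatments in contralateral tissue, to -0.01).

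The 9 genes did not move as a group. In libraries labelled HPBCD, Cd24a, Igfbpl1, Nes, Sox2 and Sox11 were higher in peri-infarct than in contralateral tissue, whereas Dlx1, Dlx2 and Dcx were lower and Dlx5 was not called. In vehicle libraries the same comparison called Sox2 and Sox11 higher and Dlx1 lower. With the animal as a block, Cd24a was called higher there as well and Dlx1 was not called. Between treatments, Cd24a and Nes were higher in peri-infarct libraries labelled HPBCD, and no member was called in contralateral tissue. As a group name, neuroblast genes is therefore not borne out by a common direction, and the members are described below by what each one did.

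The stretches of genome before the starts of 4 members are shown because, between regions in HPBCD mice, Dlx2 and Dcx were lower and Nes and Sox2 higher; in vehicle mice Sox2 alone of the 4 was called. They are RefSeq promoter windows of the GRCm38.p6 build, up to 250 bases before the RefSeq start and cut where an annotated exon of the gene begins; 6 of the 9 members had a window. Each is written 5′ to 3′ on the gene's own strand, and capitals mark a CCAAT box (CCAAT or its reverse complement ATTGG) or a TATA box (TATAAA or TTTATA). The windows lie at chr2:71546755-71547004 on the minus strand (Dlx2, 250 bases), chrX:143933312-143933469 on the minus strand (Dcx, 158 bases), chr3:87970843-87971077 on the plus strand (Nes, 235 bases) and chr3:34649745-34649994 on the plus strand (Sox2, 250 bases). The Sox2 window does not adjoin the gene as GENCODE M21 places it, from 34650405, and the bases after the window matched no GENCODE M21 transcript of Sox2.
Dlx2: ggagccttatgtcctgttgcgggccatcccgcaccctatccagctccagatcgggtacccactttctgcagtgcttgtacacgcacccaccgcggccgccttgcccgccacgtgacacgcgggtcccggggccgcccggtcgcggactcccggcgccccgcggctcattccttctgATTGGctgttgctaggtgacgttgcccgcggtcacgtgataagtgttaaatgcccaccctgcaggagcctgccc
Dcx: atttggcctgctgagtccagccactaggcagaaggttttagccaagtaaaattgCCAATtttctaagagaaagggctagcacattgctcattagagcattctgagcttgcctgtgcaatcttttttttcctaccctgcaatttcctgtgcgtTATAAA
Nes: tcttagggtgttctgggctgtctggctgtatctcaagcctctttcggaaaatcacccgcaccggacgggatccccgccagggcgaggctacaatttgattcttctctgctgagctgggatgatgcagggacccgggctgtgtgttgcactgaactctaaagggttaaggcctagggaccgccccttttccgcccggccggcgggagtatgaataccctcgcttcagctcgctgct
Sox2: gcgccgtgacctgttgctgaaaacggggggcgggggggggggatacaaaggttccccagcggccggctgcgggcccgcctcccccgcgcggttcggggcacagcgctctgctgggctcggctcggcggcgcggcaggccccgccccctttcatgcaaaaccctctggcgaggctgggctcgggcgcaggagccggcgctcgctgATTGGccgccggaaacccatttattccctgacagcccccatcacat

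Base composition did not sort these windows by the direction of the genes in HPBCD mice. The Dlx2 window was 66.4% G or C with 24 CpG pairs and the Sox2 window 72.0% with 27, although Dlx2 was lower and Sox2 higher beside the infarct in those mice. The Nes window was 58.7% G or C with 14 CpG pairs, and the Dcx window 42.4% with 1, beside medians of 52.4% and 6 over all 32817 windows of 250 bases. A CCAAT box was present in the windows of Dlx2, Dcx and Sox2, and a TATA box in that of Dcx. Of all windows of 250 bases, 33.8% held a CCAAT box, and of their first 158 bases 21.2% held a CCAAT box and 7.57% a TATA box. Neither the letters TAATTA, the core of many homeodomain sites (4.85% of all windows of 250 bases), nor AACAAT or ATTGTT, a SOX core (9.42%), nor the E-box CAGCTG (13%) were in the 4 windows. The window of Sox11, which is not printed (250 bases, 58.0% G or C, 17 CpG pairs), held 1 CAGCTG and 1 CCAAT box. The motifs searched do not overlap each other in these windows, and a match of letters is a description of the sequence only.

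Cd24a (ENSMUSG00000047139, chromosome 10, 43578284 to 43584265 on the plus strand of GRCm38), a small surface glycoprotein of neuroblasts and of ependyma, showed the widest range between groups apart from Igfbpl1. Its levels in replicates 1 to 5 were 4.65, 1.95, 11.9, 2.40 and 2.99 CPM in vehicle contralateral tissue. They were 14.2, 9.09, 12.7, 7.61 and 12.0 CPM in vehicle peri-infarct tissue. Vehicle contralateral replicate 3 lay inside the range of the peri-infarct libraries and the other 4 lay below it. In tissue labelled HPBCD, Cd24a was at 2.59, 2.70, 3.35, 2.92 and 1.77 CPM on the contralateral side and at 26.9, 23.1, 48.1, 43.8 and 38.9 CPM beside the infarct. Every HPBCD peri-infarct library was above every library of the other 3 groups.

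Between regions, Cd24a was higher by 3.82 ± 0.23 in log2 units (± SE throughout, edgeR adjusted p = 3.28e-07) in mice labelled HPBCD, a 14.1-fold difference, and higher in 5 of 5 animals, by 3.04 to 4.38. In vehicle mice the difference was 1.23 ± 0.43 and was not called (edgeR adjusted p = 0.0616), although peri-infarct tissue was above contralateral tissue in 5 of 5 animals, by 0.08 to 2.16. With the animal as a block it was 1.5 and called (edgeR adjusted p = 0.0149). Leaving vehicle contralateral replicate 3 out gave 1.91 (edgeR adjusted p = 0.00496), and leaving out both vehicle contralateral libraries that stood apart gave 2.2 (edgeR adjusted p = 0.00964). Beside the infarct, Cd24a was 3.3-fold higher in libraries labelled HPBCD than in vehicle libraries (log2 1.72 ± 0.23, edgeR adjusted p = 0.0127). In contralateral tissue the difference was -0.85 ± 0.43 (edgeR adjusted p = 0.648). Most of it came from vehicle contralateral replicate 3, since it was -0.19 without that library and 0.07 without all 3 that stood apart.

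Ependyma markers moved with Cd24a. Their summed level ran from 14.5 to 63.4 CPM in vehicle contralateral libraries (median 15.6), from 34.5 to 86.0 in vehicle peri-infarct (64.3), from 14.5 to 22.0 in HPBCD contralateral (15.2) and from 128 to 241 in HPBCD peri-infarct libraries (155). Of 11 ependyma markers tested between regions in HPBCD mice, 11 were higher, where 30.3% of all genes were higher. Only 6 of the 12 markers passed the filter on low counts when contralateral libraries were compared between treatments. The others of the 11, Ccdc153 among them, passed it through the peri-infarct libraries, so this count is a description. Of the defining markers, Foxj1, the master regulator of motile cilia, had medians of 5.83, 21.9, 5.05 and 59.8 CPM in those 4 groups in the same order. Ccdc153 was at or near 0 in most contralateral libraries, with medians of 0.249 and 0.051 CPM. Its peri-infarct medians were 8.83 CPM in vehicle and 21.2 CPM in HPBCD libraries. Within groups, the correlation of Cd24a with the mean of the ependyma list was 0.82 over the 20 libraries. The 3 genes most like Cd24a within groups, of 16688 compared, were 2410004P03Rik (r = 0.91), Ccdc40 (r = 0.89), which helps assemble the motile cilium, and Dnali1 (r = 0.85), a light chain of ciliary dynein. These correlations share library, depth and animal with each other and are descriptions. The part of ependymal cells in the Cd24a difference was not tested.

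Igfbpl1 (ENSMUSG00000035551, chromosome 4, 45809468 to 45826923, minus strand), an insulin-like growth factor binding protein-like gene known from neuroblasts, was the rarest of the 9. In vehicle contralateral libraries it was at 0.332, 0.167, 0, 0.0546 and 0 CPM, which is 10 counts in all. In HPBCD contralateral libraries it was at 0 in 4 of 5 and at 0.0698 CPM in replicate 3, from 1 count. In vehicle peri-infarct libraries it was at 0.870, 0.0516, 1.57, 1.39 and 1.28 CPM. In HPBCD peri-infarct libraries it was at 1.71, 1.25, 2.31, 2.45 and 3.63 CPM.

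Peri-infarct libraries were thus above contralateral ones, with the exception of vehicle peri-infarct replicate 2. Summed over each group, 239 counts stood against 1 in HPBCD mice, a ratio of 191 with a 95% counting interval from 33.9 to 7570. The gene passed the filter on low counts there only through the peri-infarct libraries, so its edgeR call (adjusted p = 2.09e-06) is a description and supports nothing further. In vehicle mice 103 counts stood against 10, a ratio of 9.44 with an interval from 4.93 to 20.3. Of the 10, 6 came from vehicle contralateral replicate 1, and the fitted log2 difference was 4.11 without that library against 3.16 with all libraries and no filter. The filter on low counts left Igfbpl1 out of the edgeR test there. Without the filter the edgeR adjusted p was 0.019 and with DESeq2 it was 0.00282. The highest value among fits that left out 1 library and tested the gene was 0.0516, reached when vehicle contralateral replicate 5 was dropped. Peri-infarct libraries labelled HPBCD held 239 counts against 103 in vehicle ones, a ratio of 2.2 with an interval from 1.73 to 2.78, but animals differed by more than counting error and the gene was not called (edgeR adjusted p = 0.119). Within groups Igfbpl1 was most like Cd72 (r = 0.87), a receptor of B cells, Hvcn1 (r = 0.83), a proton channel of immune cells, and 4931440P22Rik (r = 0.83), and its correlation with Cd24a was 0.06. It was at 0.64 with the reactive astrocyte list and at -0.11 with the B cell and granulocyte list. These correlations rest on few counts.

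Nes (ENSMUSG00000004891, chromosome 3, 87971078 to 87980451, plus strand) encodes nestin, the intermediate filament of neural stem cells. Its levels were 21.9, 18.9, 13.8, 10.4 and 21.7 CPM in vehicle contralateral and 17.1, 14.5, 20.1, 15.6 and 16.8 CPM in vehicle peri-infarct libraries, which overlapped. In HPBCD contralateral libraries they were 13, 17.8, 15.6, 16.1 and 13.1 CPM. HPBCD peri-infarct libraries, at 23.5, 24.0, 25.6, 33.1 and 28.5 CPM, lay above every other library. Between regions Nes was 1.84-fold higher in HPBCD mice (log2 0.88 ± 0.13, edgeR adjusted p = 7.64e-05) and higher in 5 of 5 animals, by 0.42 to 1.11. In vehicle mice it differed by -0.03 ± 0.19 (edgeR adjusted p = 0.924) and was higher in 2 of 5 animals. Comparing peri-infarct tissue alone, Nes was 1.62-fold higher in libraries labelled HPBCD than in vehicle libraries (log2 0.70 ± 0.12, edgeR adjusted p = 0.0128).

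Sox2 (ENSMUSG00000074637, chromosome 3, 34650405 to 34652461, plus strand), a transcription factor of stem cells and astrocytes, had coefficients of variation of 7.79% to 12.9% within groups, the lowest of the 9 genes in 3 of the 4 groups. It was at 59.6, 69.3, 74.3, 70.8 and 64.0 CPM in vehicle contralateral and at 75.8, 83.2, 91.6, 85.6 and 92.0 CPM in vehicle peri-infarct libraries. It was at 54.5, 66.0, 78.5, 66.2 and 65.2 CPM in HPBCD contralateral and at 90.3, 85.9, 112, 109 and 102 CPM in HPBCD peri-infarct libraries. The regions did not overlap in either treatment. Peri-infarct tissue was 1.28-fold higher in vehicle mice (log2 0.35 ± 0.08, edgeR adjusted p = 0.0100) and 1.56-fold higher in HPBCD mice (log2 0.64 ± 0.11, edgeR adjusted p = 0.000277). It was the higher side in 10 of 10 animals, by 0.26 to 0.52 and by 0.38 to 0.73. The 2 peri-infarct groups differed in Sox2 by 0.24 ± 0.09, higher in HPBCD, and it was not called (edgeR adjusted p = 0.0860). Without HPBCD peri-infarct replicate 2 it was 0.29 and called (edgeR adjusted p = 0.0382).

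Reactive astrocyte markers were higher beside the infarct in both treatments, as Sox2 was, whereas Nes was called higher in HPBCD mice and not in vehicle mice. The 12 markers summed to 195 to 358 CPM in vehicle contralateral and 159 to 221 CPM in HPBCD contralateral libraries. In peri-infarct libraries they summed to 672 to 3390 CPM in vehicle and 2850 to 5550 CPM in HPBCD mice. Gfap, the astrocyte filament, had medians of 220, 1850, 153 and 3310 CPM in vehicle contralateral, vehicle peri-infarct, HPBCD contralateral and HPBCD peri-infarct tissue. Serpina3n, a serine protease inhibitor of reactive astrocytes, had medians of 9.28, 129, 9.58 and 307 CPM. Both medians were higher beside the infarct in libraries labelled HPBCD than in vehicle ones, the direction that raises the question about the treatment labels. Homeostatic astrocyte markers had medians of 6960, 6970, 7890 and 7360 summed CPM, but the members of that list differed. Aqp4, the astrocyte water channel, had medians of 110, 304, 105 and 459 CPM in the same order, and Aldh1l1, a folate enzyme, 62.9, 69.3, 72.6 and 82.4 CPM. Endothelial and mural markers were at medians of 401, 318, 408 and 398. Within groups, the correlation with the reactive astrocyte list was 0.27 for Nes and 0.44 for Sox2, and that of Nes with Sox2 was 0.03. Nes was at 0.54 with the oligodendrocyte precursor, 0.49 with the endothelium and mural cell and 0.44 with the homeostatic astrocyte list. Within groups Nes was most like Slc43a2 (r = 0.87), an amino acid transporter, Tceanc (r = 0.86) and Mitf (r = 0.84), a transcription factor. Sox2 was most like Usp53 (r = 0.87), Ccdc80 (r = 0.85) and Zfp36l1 (r = 0.84), an RNA-binding protein. The part of astrocytes in the Nes and Sox2 differences was not tested.

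**Figure D1:**
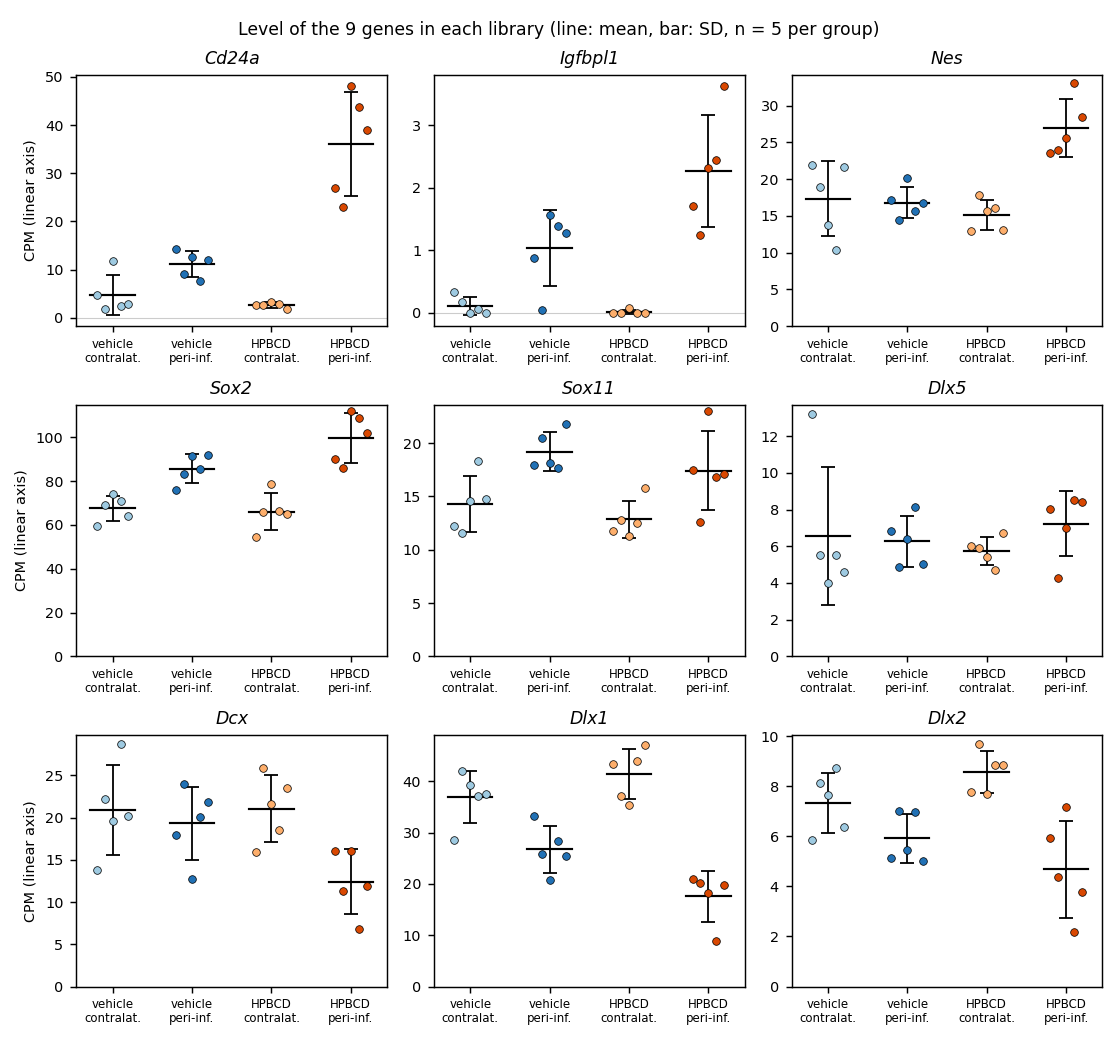
Level of each of the 9 genes in each of the 20 libraries, in CPM on linear axes, for vehicle and HPBCD contralateral and peri-infarct tissue. Points are libraries, lines the means and bars the SD of 5. The HPBCD peri-infarct points of Cd24a (23.1 to 48.1 CPM) and Nes (23.5 to 33.1 CPM) lie above all others of their gene, whereas those of Dlx1 (8.88 to 21 CPM) lie below both contralateral groups.

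Sox11 (ENSMUSG00000063632, chromosome 12, 27334264 to 27342574, minus strand) is a SoxC transcription factor of immature neurons. It was at 12.2, 11.6, 14.6, 18.3 and 14.8 CPM in vehicle contralateral and at 17.9, 20.5, 18.1, 17.7 and 21.8 CPM in vehicle peri-infarct libraries. It was at 11.8, 12.8, 11.3, 12.5 and 15.8 CPM in HPBCD contralateral and at 17.5, 12.6, 23.0, 16.8 and 17.1 CPM in HPBCD peri-infarct libraries. One library crossed over in each treatment, vehicle contralateral replicate 4 and HPBCD peri-infarct replicate 2. Sox11 was 1.35-fold higher beside the infarct in vehicle mice (log2 0.43 ± 0.13, edgeR adjusted p = 0.0323) and 1.40-fold higher in HPBCD mice (log2 0.49 ± 0.14, edgeR adjusted p = 0.0120). Peri-infarct tissue was the higher side in 4 of 5 animals of each treatment. The vehicle call did not hold in 7 of the 10 fits that left out 1 library, namely vehicle peri-infarct replicate 2, 4 or 5 or vehicle contralateral replicate 1, 2, 3 or 5 (edgeR adjusted p up to 0.0756). Without the libraries that stood apart it was 0.39 and not called either (edgeR adjusted p = 0.129). Between treatments Sox11 differed by -0.12 ± 0.14 in peri-infarct tissue (edgeR adjusted p = 0.558).

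Dcx (ENSMUSG00000031285, chromosome X, 143855842 to 143933311, minus strand) encodes doublecortin, the microtubule-binding protein of migrating neuroblasts and the usual marker of new neurons. It was at 13.8, 22.2, 19.6, 28.7 and 20.2 CPM in vehicle contralateral and at 18.0, 24.0, 12.7, 20.1 and 21.9 CPM in vehicle peri-infarct libraries, with wide overlap. It was at 15.9, 25.9, 21.6, 18.5 and 23.5 CPM in HPBCD contralateral and at 16.0, 11.3, 16.0, 6.81 and 11.9 CPM in HPBCD peri-infarct libraries. In the latter, replicates 1 and 3 were level with the lowest contralateral library and the rest were below it. Between regions Dcx was 1.64-fold lower in HPBCD mice (log2 -0.72 ± 0.20, edgeR adjusted p = 0.00974), lower in 4 of 5 animals and equal to 2 decimals in the other. In vehicle mice it differed by -0.10 ± 0.19 (edgeR adjusted p = 0.741). For HPBCD against vehicle beside the infarct the Dcx difference was -0.62 ± 0.23 and was not called by edgeR (adjusted p = 0.0680). DESeq2 called it (adjusted p = 0.0343), as did edgeR without vehicle peri-infarct replicate 3 (log2 -0.74, adjusted p = 0.0267).

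The Dlx genes encode distal-less homeobox transcription factors that specify inhibitory neurons of the ventral forebrain. Dlx1 and Dlx2 are neighbours on chromosome 2, Dlx1 at 71528113 to 71533981 on the plus strand (ENSMUSG00000041911) and Dlx2 at 71543408 to 71546754 on the minus strand (ENSMUSG00000023391). Dlx5 lies on chromosome 6 at 6877805 to 6882085 on the minus strand (ENSMUSG00000029755). Dlx1as, an antisense RNA, overlaps 335 bp of Dlx1 exon (6.21% of its exon length). Since the strand option of the counting is not given in the sources used here, those bases of Dlx1 are uncertain, although Dlx1as itself had 26 to 57 counts per library against 167 to 853 for Dlx1.

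Dlx1 was at 28.6, 42.0, 39.2, 37.2 and 37.6 CPM in vehicle contralateral and at 33.3, 25.9, 20.8, 28.3 and 25.4 CPM in vehicle peri-infarct libraries. It was at 43.3, 37.2, 35.4, 43.9 and 47.1 CPM in HPBCD contralateral and at 21, 20.2, 18.2, 8.88 and 19.7 CPM in HPBCD peri-infarct libraries. The HPBCD groups were apart, with replicate 4 lowest, whereas in vehicle mice replicate 1 crossed over. Between regions Dlx1 was 2.27-fold lower in HPBCD mice (log2 -1.18 ± 0.19, edgeR adjusted p = 0.000178), lower in 5 of 5 animals. In vehicle mice it was 1.37-fold lower (log2 -0.46 ± 0.13, edgeR adjusted p = 0.0265), lower in 4 of 5 animals. This vehicle call did not hold with the animal as a block (edgeR adjusted p = 0.0606), nor with all 4 groups in 1 fit (edgeR adjusted p = 0.0694), nor without vehicle peri-infarct replicate 3 or 5 or vehicle contralateral replicate 2, 3 or 5 (edgeR adjusted p up to 0.0754). Peri-infarct Dlx1 differed between treatments by -0.58 ± 0.21 and was not called by edgeR (adjusted p = 0.0635). DESeq2 called it (adjusted p = 0.0327), and so did edgeR without vehicle peri-infarct replicate 3 (adjusted p = 0.0396) or HPBCD peri-infarct replicate 2 (adjusted p = 0.0456).

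Dlx2 was at 5.86, 8.13, 7.65, 8.73 and 6.38 CPM in vehicle contralateral and at 5.12, 7.02, 5.46, 6.96 and 5.03 CPM in vehicle peri-infarct libraries. It was at 7.76, 9.68, 7.68, 8.84 and 8.85 CPM in HPBCD contralateral and at 5.93, 4.36, 7.18, 2.18 and 3.77 CPM in HPBCD peri-infarct libraries, which lay below all of the former. Dlx2 was 1.76-fold lower beside the infarct in HPBCD mice (log2 -0.82 ± 0.24, edgeR adjusted p = 0.0122), and differed by -0.30 ± 0.16 in vehicle mice (edgeR adjusted p = 0.199). It was lower in 10 of 10 animals, with log2 differences of -1.97 to -0.10 in HPBCD and -0.48 to -0.19 in vehicle mice. Peri-infarct Dlx2 differed between treatments by -0.31 ± 0.27 (edgeR adjusted p = 0.405).

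Dlx5 did not follow Dlx1 and Dlx2. It was at 13.2, 5.51, 3.98, 5.51 and 4.58 CPM in vehicle contralateral and at 6.86, 4.85, 6.41, 8.17 and 5.03 CPM in vehicle peri-infarct libraries. It was at 6.04, 5.91, 5.44, 4.69 and 6.74 CPM in HPBCD contralateral and at 8.02, 4.26, 6.99, 8.51 and 8.43 CPM in HPBCD peri-infarct libraries. Its highest value came from vehicle contralateral replicate 1, the library high in striatal markers, and the groups overlapped. Between regions Dlx5 differed by 0.37 ± 0.18 in HPBCD mice (edgeR adjusted p = 0.0975). Without HPBCD peri-infarct replicate 2, the lowest Dlx5 value of its group, the difference was 0.51 and was called (edgeR adjusted p = 0.00771). In vehicle mice it was -0.06 ± 0.31 (edgeR adjusted p = 0.921), and 0.38 without vehicle contralateral replicate 1 (edgeR adjusted p = 0.186).

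Markers of mature neurons moved alongside these genes. The 12 cortical interneuron markers summed to medians of 1300 CPM in both vehicle and HPBCD contralateral tissue, 950 CPM in vehicle peri-infarct and 754 CPM in HPBCD peri-infarct tissue, where no peri-infarct HPBCD library (653 to 870) reached the contralateral range (1240 to 1420). Gad1, an enzyme that makes GABA, had medians of 349, 232, 401 and 172 CPM in vehicle contralateral, vehicle peri-infarct, HPBCD contralateral and HPBCD peri-infarct libraries, whereas Gad2 was at 139, 165, 171 and 160 CPM. Pan-neuronal markers summed to 13300 to 15900 CPM and 16300 to 17000 CPM on the contralateral sides, and to 10000 to 12400 CPM (vehicle) and 5320 to 10100 CPM (HPBCD) beside the infarct. Striatal medium spiny neuron markers went the other way in HPBCD mice, from a median of 431 to 2390 CPM, with 12 of 12 higher (30.3% of all genes). In vehicle mice their medians were 473 and 1500 CPM, but 0 of 12 were called (20.2% of all genes) and 0 had an unadjusted p under 0.05 in edgeR. Vehicle contralateral replicate 1, at 4740 CPM, was above every vehicle peri-infarct library (576 to 2860 CPM). Within groups the correlation of Dlx1 was 0.77 with the pan-neuronal and 0.73 with the cortical interneuron list, that of Dlx5 was 0.85 with the striatal list, and that of Dcx was 0.49 with the pan-neuronal list. The part of mature neurons, or of where the tissue was cut, in the Dlx and Dcx differences was not tested.

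The genes closest to these members within groups were as follows. Dcx was most like Smarca2 (r = 0.91), a chromatin remodeler, Ppp1r26 (r = 0.89) and Sestd1 (r = 0.87). Dlx1 was most like Mtfp1 (r = 0.90), a mitochondrial fission protein, Tmem246 (r = 0.88) and Ccne1 (r = 0.88), a cyclin. Dlx2 was most like Gm29100 (r = 0.85), C530050E15Rik (r = 0.83) and Grin2d (r = 0.80), an NMDA receptor subunit. Dlx5 was close to Crabp1 (r = 0.92), a retinoic acid binding protein, and Pdyn (r = 0.91), the prodynorphin gene. Sox11 had the weakest partners, Gm15610 (r = 0.74), Mrap2 (r = 0.74) and Actl10 (r = 0.73). Among the members, Dcx and Dlx2 (r = 0.79), Dlx1 and Dlx2 (r = 0.65) and Dcx and Dlx1 (r = 0.62) varied together, and Dcx and Nes (r = -0.56) in opposite directions. All are correlations over the same 20 libraries after the group means were removed.

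**Figure D2:**
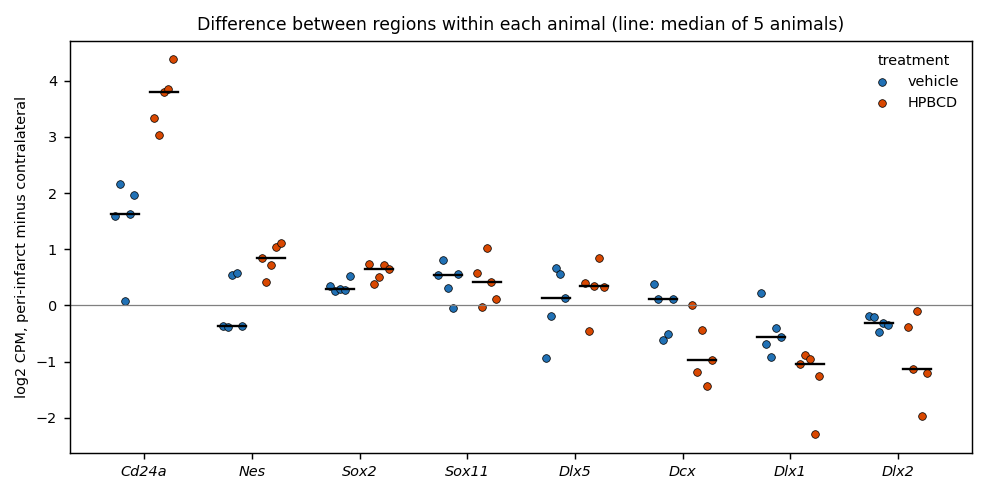
Difference between peri-infarct and contralateral tissue within each animal, in log2 CPM, for 8 of the genes (Igfbpl1, with 0 counts in many libraries, is left out). Points are animals, 5 vehicle and 5 HPBCD, and lines are medians. Cd24a and Sox2 are above 0 in 10 of 10 animals, Dlx2 is below 0 in 10 of 10, and Nes splits in vehicle mice with 2 above and 3 below.

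Set side by side, 3 of 8 members tested were called between regions in vehicle mice, 2 higher and 1 lower, where 20.2% of all 15801 genes tested were called (10.5% higher and 9.70% lower). With the animal as a block, Cd24a (edgeR adjusted p = 0.0149) took the place of Dlx1 (edgeR adjusted p = 0.0606), so that the 3 called were all higher. Only Sox2 had groups that did not overlap, against 13.6% of all genes. The median log2 difference was -0.04 over the members and 0.01 over all genes. In HPBCD mice 8 of 9 members were called, 5 higher and 3 lower (Igfbpl1, one of the 5, passed the filter only through its high group), where 54.6% of 16047 genes were called (30.3% higher and 24.3% lower), and 6 had groups that did not overlap, against 43.0% of all genes. The medians were 0.49 and 0.03. Most genes tested thus differed between regions in these mice, and the count of members called is to be read against that share.

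Between treatments in peri-infarct tissue, 2 of 9 members were called, both higher in libraries labelled HPBCD, where 21.4% of 16224 genes were called (12.4% higher and 9% lower). The share of members was near that background. The same members, Cd24a and Nes, had groups that did not overlap, against 13.4% of all genes, and the median was 0.23 over the members and 0.01 over all genes. Dcx, Dlx1 and Sox2, at adjusted p of 0.0635 to 0.0860 in edgeR, passed or missed the threshold depending on the tool or on single libraries. In contralateral tissue 0 of 8 members tested and 0 of 15469 genes (0%) were called by edgeR, and no member had groups that did not overlap, against 1.44% of all genes. At an unadjusted p under 0.05 edgeR counted 1224 genes, and DESeq2 called 53 genes and none of these members, of which 0 had an unadjusted p under 0.05 in edgeR. Log2 differences there were -0.85 for Cd24a and -0.21 to 0.21 for Sox11, Dlx1, Dlx2, Dlx5, Nes, Sox2 and Dcx. The 4 comparisons share groups with each other, so their values are given next to one another without a test of overlap.

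**Figure D3:**
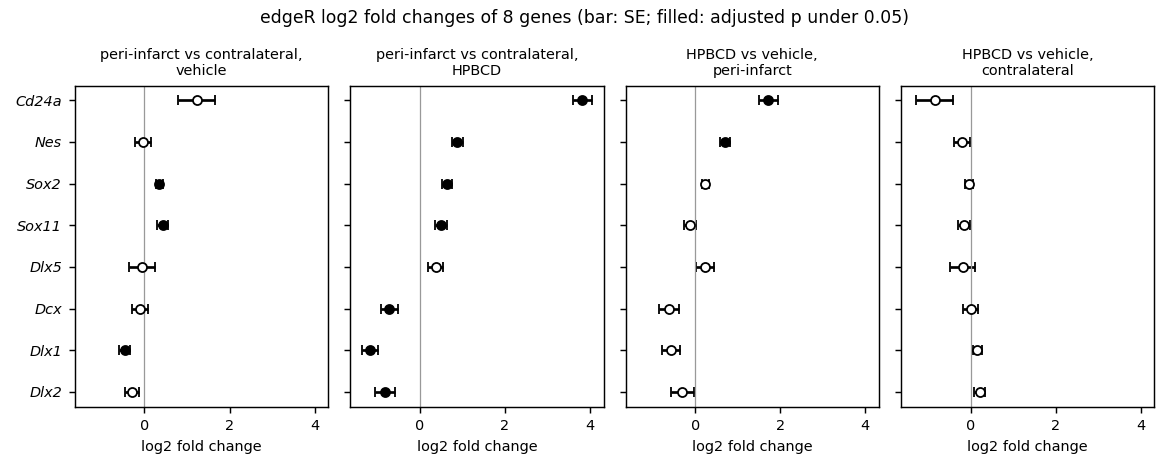
Log2 fold changes from edgeR of 8 members in 4 comparisons (Igfbpl1 is given by counts in the text). Points are estimates, bars the SE, and filled points have an adjusted p under 0.05. Cd24a in HPBCD mice (3.82) stands far to the right of all others, and no point is filled in contralateral tissue.

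Whether the difference between regions itself differed between treatments was asked with an interaction term over all 20 libraries. It was called for 2 of 9 members, where 9.41% of 16758 genes were called (5.03% higher and 4.38% lower). The regional difference was greater in HPBCD than in vehicle mice by 2.57 ± 0.52 on the log2 scale for Cd24a (edgeR adjusted p = 0.0156) and by 0.91 ± 0.24 for Nes (edgeR adjusted p = 0.0280). For Dlx1 it was -0.74 ± 0.24 (edgeR adjusted p = 0.0546), and DESeq2 called it (adjusted p = 0.0271). For the other members the edgeR adjusted p ran from 0.103 for Igfbpl1 (called by DESeq2, adjusted p = 0.0298) to 0.909 for Sox11. The DESeq2 call of Igfbpl1 rests on 10 contralateral counts in vehicle and 1 in HPBCD mice, so it is a description. Neither the Cd24a nor the Nes call of edgeR held without the 3 contralateral libraries that stood apart. In that fit Cd24a was at 1.65 (edgeR adjusted p = 0.0964) and Nes at 0.90 (edgeR adjusted p = 0.112), and 0 of 17214 genes were called by edgeR, with 3183 at an unadjusted p under 0.05. Nes also lost its call without vehicle peri-infarct replicate 2, vehicle contralateral replicate 1 or HPBCD peri-infarct replicate 4 (edgeR adjusted p up to 0.0574).

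Levels of different genes were compared per kilobase of exon. Sox2 was first in all 4 groups, at 32.9 ± 2.81 CPM per kb in vehicle contralateral, 41.6 ± 3.24 in vehicle peri-infarct, 32.1 ± 4.13 in HPBCD contralateral and 48.5 ± 5.56 in HPBCD peri-infarct tissue (SD, n = 5), and its libraries did not overlap those of the next gene. Igfbpl1 was last, at 0.0341, 0.318, 0.00429 and 0.699 CPM per kb. Dlx1 was second in 3 groups, at 4.95 to 7.67 CPM per kb. In HPBCD peri-infarct tissue Cd24a was second at 14 ± 4.18 CPM per kb and apart from Nes, the next at 4.20. In HPBCD contralateral tissue Cd24a was at 1.03 ± 0.225 CPM per kb and stood above Igfbpl1 alone. The middle of each order, from Dlx5, Nes, Dlx2 and Sox11 to Dcx, lay between 0.979 and 4.20 CPM per kb, and most neighbours in it overlapped.

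The surrounding programs were described by 5 lists of other genes, chosen with earlier results known. Of 20 neuroblast and immature neuron genes, 6 were higher and 3 lower beside the infarct in vehicle mice (10.5% and 9.70% of all genes), and 5 were higher and 10 lower in HPBCD mice (30.3% and 24.3% of all genes; median log2 -0.38, against 0.03 for all genes). St8sia2, the enzyme that puts polysialic acid on NCAM, was among the higher ones in both, by 1.47 ± 0.39 (edgeR adjusted p = 0.0233) and by 3.88 ± 0.22 (edgeR adjusted p = 2.09e-07). The first of these calls was lost in 1 of 10 fits that left out a library (edgeR adjusted p up to 0.0526). Pan-neuronal markers were lower in the same HPBCD libraries, with median sums of 16700 CPM contralaterally and 7640 CPM beside the infarct, and 5770 and 1690 CPM for Snap25, a synaptic protein of mature neurons. The part of mature neurons in the lower genes of this list was not tested. Dpysl3, a collapsin response mediator, was higher in HPBCD mice by 1.31 ± 0.13. Stmn1 (stathmin, log2 -1.25 ± 0.15) and Elavl4 (an RNA-binding protein of neurons, -1.38 ± 0.19) were the lowest. In vehicle mice Marcksl1 was higher by 1.09 ± 0.23 and Nrep lower at -0.70 ± 0.16. Without the vehicle contralateral libraries that stood apart, the 3 lower calls of the list became 0.

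In peri-infarct tissue labelled HPBCD, compared with vehicle, 2 of the 20 neuroblast and immature neuron genes were higher, St8sia2 by 1.09 ± 0.18 and Dpysl3 by 0.40 ± 0.10, and 4 were lower, among them Tubb3 (-0.72 ± 0.16) and Elavl4 (-0.85 ± 0.23). Of all genes, 12.4% were higher and 9% lower. The count of lower genes ran from 0 to 10 when single libraries were left out, and 5 of 10 such fits did not make the Dpysl3 call, 3 that of Elavl4 and 1 that of Tubb3. St8sia2 was at a median of 1.01 CPM in HPBCD contralateral and 11.5 CPM in HPBCD peri-infarct libraries. Its medians in vehicle mice were 1.86 and 5.01 CPM. St8sia2 and Cd24a thus both had their highest median in HPBCD peri-infarct tissue, where Dcx, another neuroblast gene, had its lowest.

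Of 20 neural stem cell and radial glia genes, 10 were higher and 0 lower beside the infarct in vehicle mice, where 10.5% of all genes were higher. In HPBCD mice 13 were higher and 1 lower, where 30.3% were higher. DESeq2 also called 0 lower in vehicle mice, and 0 of the lower ones had an unadjusted p under 0.05 in edgeR. Vim (vimentin) was higher by 2.87 ± 0.37 and 4.32 ± 0.23 in vehicle and HPBCD mice, and Thbs4 (thrombospondin 4) by 1.98 ± 0.53 and 4.93 ± 0.35; both are also made by reactive astrocytes. The vehicle call of Thbs4 was lost without vehicle peri-infarct replicate 5 or vehicle contralateral replicate 5 (edgeR adjusted p up to 0.0577). The lower gene in HPBCD mice was Fgfr3 (-0.28 ± 0.09). Reactive astrocyte markers rose in the same libraries, from median sums of 266 to 2090 CPM in vehicle and 198 to 3890 CPM in HPBCD mice. The part of astrocytes in the higher genes of this list was not tested. Against vehicle, HPBCD peri-infarct tissue had 7 of the 20 genes higher (12.4% of all genes), led by Vim (1.3 ± 0.36) and Thbs4 (1.21 ± 0.34), and 1 lower, the Notch target Hes5 (-0.78 ± 0.21). With single libraries left out, the 7 became 3 to 10, and Vim, Thbs4 and Hes5 each lost the call in some of the fits (edgeR adjusted p up to 0.0715, 0.0659 and 0.0702).

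Among 18 genes of activated progenitors and the cell cycle, 4 of 13 tested were higher and 1 lower beside the infarct in vehicle mice, and 10 of 15 higher and 1 lower in HPBCD mice, beside 10.5% and 30.3% of all genes higher. The 4 in vehicle mice became 0 without the contralateral libraries that stood apart. Mki67, which marks dividing cells of any type, had 328 counts beside the infarct and 45 contralaterally in HPBCD mice (medians of 2.93 and 0.457 CPM), and 140 and 53 counts in vehicle mice. It is among the higher genes in both treatments, and Top2a in HPBCD mice, but each was too low in the contralateral libraries to be tested between treatments and passed the filter through the peri-infarct libraries, so these calls are descriptions. The vehicle call of Mki67 was also not made in 7 of 10 fits without a library. Mcm3, a replication licensing factor, was higher by 1.51 ± 0.22 and 0.98 ± 0.26 in HPBCD and vehicle mice, and E2f1 lower at -1.21 ± 0.17 and -0.72 ± 0.12. The vehicle call of Mcm3 was lost without vehicle contralateral replicate 5 (edgeR adjusted p = 0.0522) and without the libraries that stood apart (edgeR adjusted p = 0.0662). Between treatments in peri-infarct tissue 4 of 16 were higher, beside 12.4% of all genes, among them Hmgb2 (0.87 ± 0.21) and Egfr (0.83 ± 0.18), the latter a receptor of activated stem cells and of astrocytes, and the 4 became 1 to 6 without single libraries. Top2a entered that test through the HPBCD libraries (143 counts, against 57 in vehicle ones), so any call of it there is a description.

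Of 11 ventral forebrain factors tested beside the infarct in HPBCD mice, 5 were higher and 3 lower, beside 30.3% and 24.3% of all genes. Isl1, a factor of striatal neurons and one of the 5, had 436 counts beside the infarct and 1 contralaterally; it passed the filter on low counts there only through the peri-infarct libraries, so its call is a description. Pbx3 was higher by 1.84 ± 0.18. Sp8, a factor of olfactory bulb neuroblasts and of cortical interneurons, was among the lower ones (-1.18 ± 0.31). Striatal medium spiny neuron markers were higher beside the infarct in the same mice, with median sums of 431 CPM contralaterally and 2390 CPM there. The part of striatal neurons in the higher factors was not tested. In vehicle mice 1 of 11 was called, Etv1 (higher by 0.59 ± 0.12), where 20.2% of all genes were called. The 1 became 5 without vehicle contralateral replicate 1, the library with the high striatal markers, and 4 without the libraries that stood apart. Isl1 there was at 0 in most contralateral libraries and at 6.75 CPM in the one with the most, with 122 counts against 178 in peri-infarct tissue. Of 8 dorsal and dentate factors tested in HPBCD mice, 1 was higher, Prox1 (0.69 ± 0.09), and 4 were lower, among them Neurod1 (-1.15 ± 0.29) and Tbr1, a factor of deep cortical neurons (-1.75 ± 0.23). Another of the 4, Neurod4, had 20 counts beside the infarct and 56 contralaterally. It passed the filter on low counts mainly through the contralateral libraries, so its call is a description. In vehicle mice 0 of 9 were called by edgeR or DESeq2, and 1 had an unadjusted p under 0.05, beside the same 20.2% of all genes. Between treatments in peri-infarct tissue Isl1 (1.23 ± 0.37) and Pbx3 (0.76 ± 0.25) were higher and Neurod1 (-1 ± 0.29) and Tbr1 (-1.12 ± 0.32) lower, and 6, 8, 6 and 6 of 10 fits without a library did not make these calls.

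**Figure D4:**
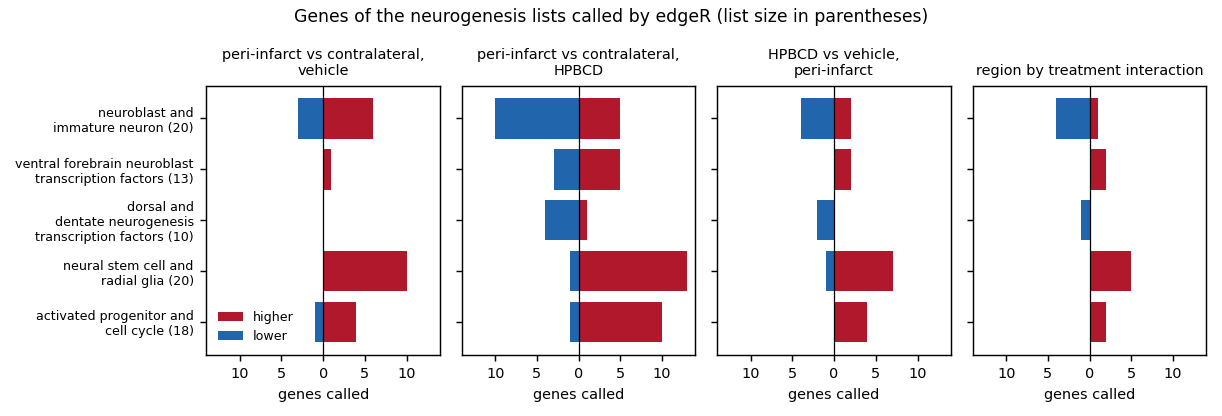
Number of genes called higher (right of 0) and lower (left of 0) by edgeR in 5 lists of neurogenesis genes, in 3 comparisons and in the interaction of region and treatment. The neuroblast and immature neuron list has 10 genes to the left in HPBCD mice, whereas the neural stem cell and radial glia list has 13 to the right.

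**Figure D5:**
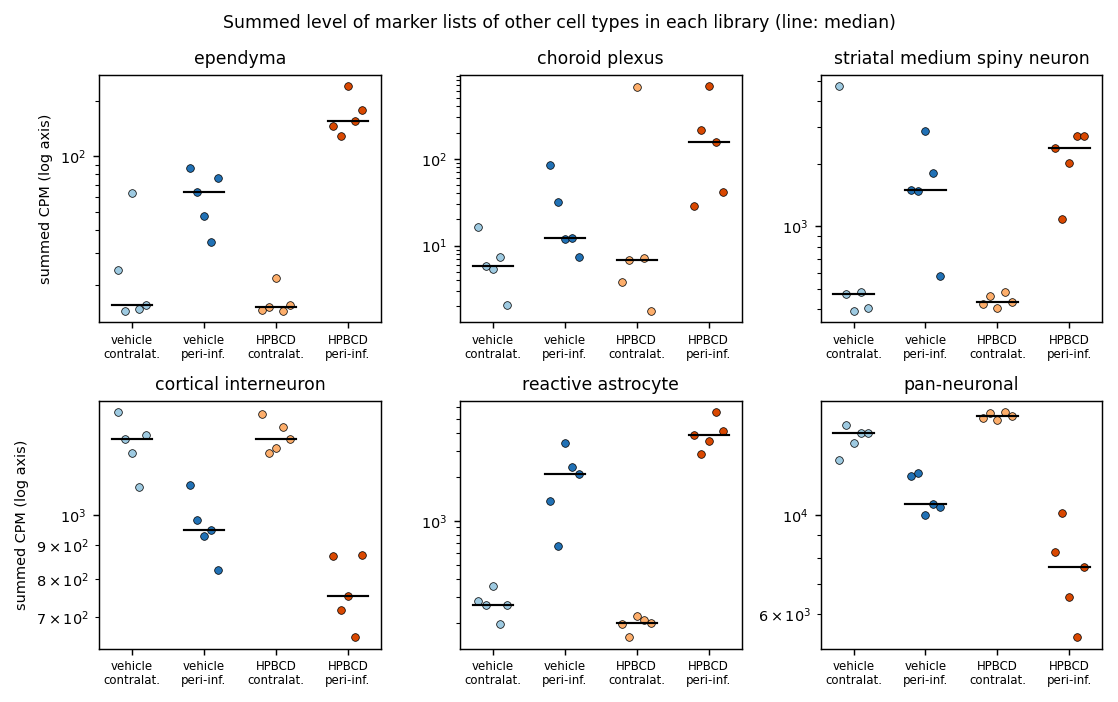
Summed CPM, on log axes, of 6 marker lists of other cell types in each of the 20 libraries, with lines at group medians. Ependyma and reactive astrocyte markers are highest and cortical interneuron and pan-neuronal markers lowest in HPBCD peri-infarct tissue, and single contralateral libraries stand out for striatal (4740 CPM), ependyma (63.4 CPM) and choroid plexus markers (661 CPM).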

How the data were processed

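RNA was taken from 20 tissue pieces of 10 mice. Per the labels and the study's methods, the authors made stranded mRNA libraries, trimmed read pairs with Trimmomatic 0.32, aligned them to GRCm38 with STAR 2.5.2b and counted them per Ensembl gene with HTSeq. Each deposited table holds the raw counts of 1 library, not normalized; the annotation release and strand option are not given in the sources used here. Read pairs without a gene were left out. No 2 tables were identical.

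Here genes were named from GENCODE M21 (45143 of 46078 matched, holding 99.933% of counts). CPM were scaled by TMM. Each comparison used its own 2 groups, and the interaction all 4, in edgeR 4.0.16 (filterByExpr, quasi-likelihood F test) in R 4.3.3, with Benjamini-Hochberg adjustment over all genes tested and a threshold of 0.05. The scripts were tested on simulated counts. DESeq2 1.42.0 (no filter on low counts; missing adjusted p-values stayed missing), RLE scaling, other filters, all 4 groups in 1 fit, a replicate block and leaving out libraries were alternatives. Log2 CPM for animals and correlations used a prior count of 2.

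Each number joins both regions of 1 animal within a treatment (same animal identifier in both deposited tables); same-numbered libraries had a mean correlation of 0.088, above 0.1 in 4 of 10 pairs. Between treatments a number is a name only. The members and all lists were chosen with earlier results of these data known. All 9 members were named, and of each pathway list the 2 called genes that rose and the 2 that fell most, with a mean of at least 1 CPM; for each member the 3 most correlated genes within groups were named. Some genes that these rules name are not reported here.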

Additional observations from a re-analysis of the deposited data

Results flagged for a closer look

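Of the 36 sets of 5 libraries (9 genes in 4 groups) that were examined for a library far from the rest, 4 had one by Dixon's ratio; chance gives about 1 in 20. Dlx1 was at 8.88 CPM in HPBCD peri-infarct replicate 4. Dlx5 was at 13.2 CPM in vehicle contralateral replicate 1. Cd24a was at 11.9 CPM in vehicle contralateral replicate 3. Igfbpl1 was at 0.0698 CPM, a single count, in HPBCD contralateral replicate 3, where the other libraries of the group were at 0. With all others at 0, the ratio is at its maximum for any count. That flag was therefore fixed in advance and should not be read against chance.

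The difference between regions differed between treatments for Cd24a, by 2.57 on the log2 scale, and for Nes, by 0.91, both from the interaction term of edgeR. Neither was called once the 3 contralateral libraries that stood apart were left out.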

How the results depend on the processing

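The number of members called between regions was 3 in vehicle and 8 in HPBCD mice. With a replicate block, which here is the animal, it was also 3 and 8, and for the interaction 2. The 3 in vehicle mice were other members, since the block dropped Dlx1 (edgeR adjusted p = 0.0606) and added Cd24a (edgeR adjusted p = 0.0149). The count kept within 1.5 times in these comparisons under DESeq2, RLE scaling and both other filters, except for the interaction. There DESeq2 called 4 members, Igfbpl1 among them on few contralateral counts. The count was 0 for the interaction without the 3 contralateral libraries that stood apart, an alternative chosen after seeing the data. Between treatments in peri-infarct tissue the count of 2 became 4 with DESeq2 and 4 with all 4 groups in 1 fit; there a block on the replicate number, which pairs no animals, gave 3 by adding Igfbpl1 (edgeR adjusted p = 0.0453). Leaving out single libraries gave counts of 1 to 4 (vehicle regions; 1 without vehicle peri-infarct or contralateral replicate 5), 8 to 9 (HPBCD regions), 2 to 4 (treatments, peri-infarct; 4 when either vehicle peri-infarct replicate 3 or, of the HPBCD libraries there, replicate 2 was dropped), 0 to 0 (treatments, contralateral) and 1 to 3 (interaction; 1 without vehicle peri-infarct replicate 2, vehicle contralateral replicate 1 or HPBCD peri-infarct replicate 4). The cause was not tested.

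Log2 differences that changed sign were near 0 in most cases, and none of those of the 9 genes had been called. Between regions in vehicle mice, Dlx5 turned to 0.05 and Nes to 0.01 with the block, and to 0.29 and 0.01 without the libraries that stood apart. Without single libraries Dlx5 ran from -0.17 to 0.38, Nes from -0.17 to 0.08 and Dcx from -0.20 to 0.04. In detail, Dlx5 was at 0.02 or 0.38, Nes at 0.01, 0.02, 0.07 or 0.08 and Dcx at 0.03 or 0.04 where the sign changed. Between treatments in contralateral tissue, Dcx was at 0.00 with no filter on low counts, and without the libraries that stood apart Dcx, Dlx5 and Cd24a were at -0.13, 0.21 and 0.07. Without single libraries Dcx ran from -0.11 to 0.15 (negative values -0.11, -0.02, -0.01, -0.08 and -0.04), Dlx5 from -0.33 to 0.23 and Sox2 from -0.11 to 0.02. In the interaction Dlx5 ran from -0.01 to 0.59 and Sox11 from -0.07 to 0.17, with -0.04 in 1 fit. Isl1 was called there by edgeR (adjusted p = 0.0337), but not with the block (5.02, adjusted p = 0.192) nor in 11 of 20 fits without a library. Its fitted value turned to -0.24 without vehicle contralateral replicate 1 and to -0.44 without the 3 libraries that stood apart, against up to 8.90 in other fits.

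Depth limited Igfbpl1, whose contralateral values lay at or near the level of 3 counts. Median shifts over all genes between scalings stayed within 0.06 on the log2 scale.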

Other observations

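Choroid plexus and B cell or granulocyte markers were examined beside the 9 genes as well. The 9 choroid plexus markers, among them the thyroxine carrier Ttr, summed to 661 CPM in HPBCD contralateral replicate 3, which also had the only Igfbpl1 count of its group, and to 28.7 to 691 CPM in HPBCD peri-infarct libraries, against 7.45 to 84.2 CPM in vehicle peri-infarct libraries. The 12 B cell and granulocyte markers summed to medians of 2, 2.63, 1.62 and 10.3 CPM in vehicle contralateral, vehicle peri-infarct, HPBCD contralateral and HPBCD peri-infarct tissue, with ranges of 0.885 to 12.8, 0.921 to 7.33, 0.558 to 4.33 and 3.55 to 34.9 CPM. The HPBCD peri-infarct group, which also had the most Igfbpl1 counts, thus had the highest median. Within groups, however, the correlation of Igfbpl1 was 0.08 with the choroid plexus and -0.11 with the B cell and granulocyte list. A link of Igfbpl1 to either was not tested. Oligodendrocyte precursor markers, another dividing population of the adult brain, were at medians of 477, 553, 456 and 602 summed CPM in the same order, and 8 of 10 were higher beside the infarct in HPBCD mice by edgeR, where 30.3% of all genes were higher.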
